A study of Mus musculus with 12 samples.

Results

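Transcription factors that drive keratinocytes through the layers of the epidermis were followed in mice that lack Pparg in the epidermis. The group comprised 9 genes, Trp63, Klf4, Grhl1, Grhl3, Ovol1, Maf, Zfp750, Gata3 and Prdm1, taken by gene symbol from the 14533 genes with counts, and all 9 were present. RNA from epidermal scrapings of the back skin of 12 untreated C57BL/6 mice had been sequenced, with 1 library per mouse. The 6 Pparg-/-epi mice were homozygous for a floxed Pparg allele and carried 1 copy of Cre under the keratin 14 promoter. The 6 WT mice were siblings that were also flox/flox but had no Cre, so that the floxed allele was shared by both groups. The WT group held 3 females and 3 males and the Pparg-/-epi group 4 females and 2 males, and ages ran from 8 to 13 weeks in each group by the sample labels, from which the study's sample sheet differs for some mice. Total counts per library ran from 10120840 to 16947632 in WT mice and from 11272135 to 18851255 in Pparg-/-epi mice.

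Keratinocytes divide in the basal layer, attached to the basement membrane, and then leave the cell cycle, build desmosomes and keratin filaments in the spinous layer and assemble lipids, proteases and the cornified envelope in the granular layer. The p63 protein sets up and maintains the basal state and switches on later factors such as ZNF750, MAF and GRHL3, while KLF4, the grainyhead-like proteins and BLIMP1 act in cells that have left the basal layer. PPARγ is a nuclear receptor that is activated by fatty acids and is best known for its part in fat cells and sebocytes.

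The keratin 14 promoter is active in basal keratinocytes of the epidermis and the hair follicle, so deletion reaches their suprabasal offspring and the sebaceous gland. The tissue was scraped until the superficial dermis was reached, and it holds follicle, vessel and immune cells beside keratinocytes. In such bulk tissue, fewer cells of a type and less RNA per cell cannot be told apart. Pparg itself had 5 to 269 counts in WT mice (median 36.5) and 16 to 107 counts in Pparg-/-epi mice (median 60.5). Its fitted log2 fold change was -0.10 (SE 0.71, adjusted p = 0.949 by edgeR's quasi-likelihood test). Excision is known to leave a shortened Pparg transcript, and counts per gene do not show which exons were read, so the source of the reads was not tested. Keratinocyte markers were abundant in both groups, with Krt5 of the basal layer at 2423 and Krt10 of the spinous layer at 8806 RPKM in WT mice, where RPKM is the count scaled by TMM-adjusted library total and gene length.

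The library of WT replicate 2 stood apart. On the first dimension of a multidimensional scaling of all genes its position was 1.19. The other 5 WT mice ranged from -1.99 to -0.909 and the 6 Pparg-/-epi mice from 0.124 to 1.97, a range that includes this library. This mouse had the lowest WT level of 7 of the 9 factors, the exceptions being Trp63 and Prdm1. Counts of altered genes are given with and without it.

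All 9 factors were well expressed. Levels between genes are compared as RPKM. In WT mice the order ran from Klf4, at 351 ± 116 (SD, n = 6), through Gata3 at 273 ± 91.8, Grhl1 at 193 ± 40.6, Trp63 at 96.1 ± 9.97, Zfp750 at 92.3 ± 10.3, Grhl3 at 53.6 ± 9.32, Maf at 46.7 ± 12.0 and Ovol1 at 34.3 ± 5.97 to Prdm1 at 17.9 ± 3.01. Even Prdm1 lay above 70.8% of the 14533 genes, and Klf4 lay above 98.9% of them. The ranges over the 6 WT mice did not overlap between Grhl1 and Trp63, between Zfp750 and Grhl3, or between Ovol1 and Prdm1, and every other pair of neighbours overlapped. Klf4 nevertheless exceeded Gata3, and Gata3 exceeded Grhl1, in 6 of 6 WT mice, whereas Trp63 exceeded Zfp750 in 3 of 6. In Pparg-/-epi mice Klf4 was again highest, at 342 ± 145 RPKM, and Prdm1 lowest, at 24.3 ± 5.20. Gata3, at 139 ± 42.7 RPKM, was there below Grhl1, at 161 ± 20.9, in 5 of 6 mice.

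**Figure D1:**
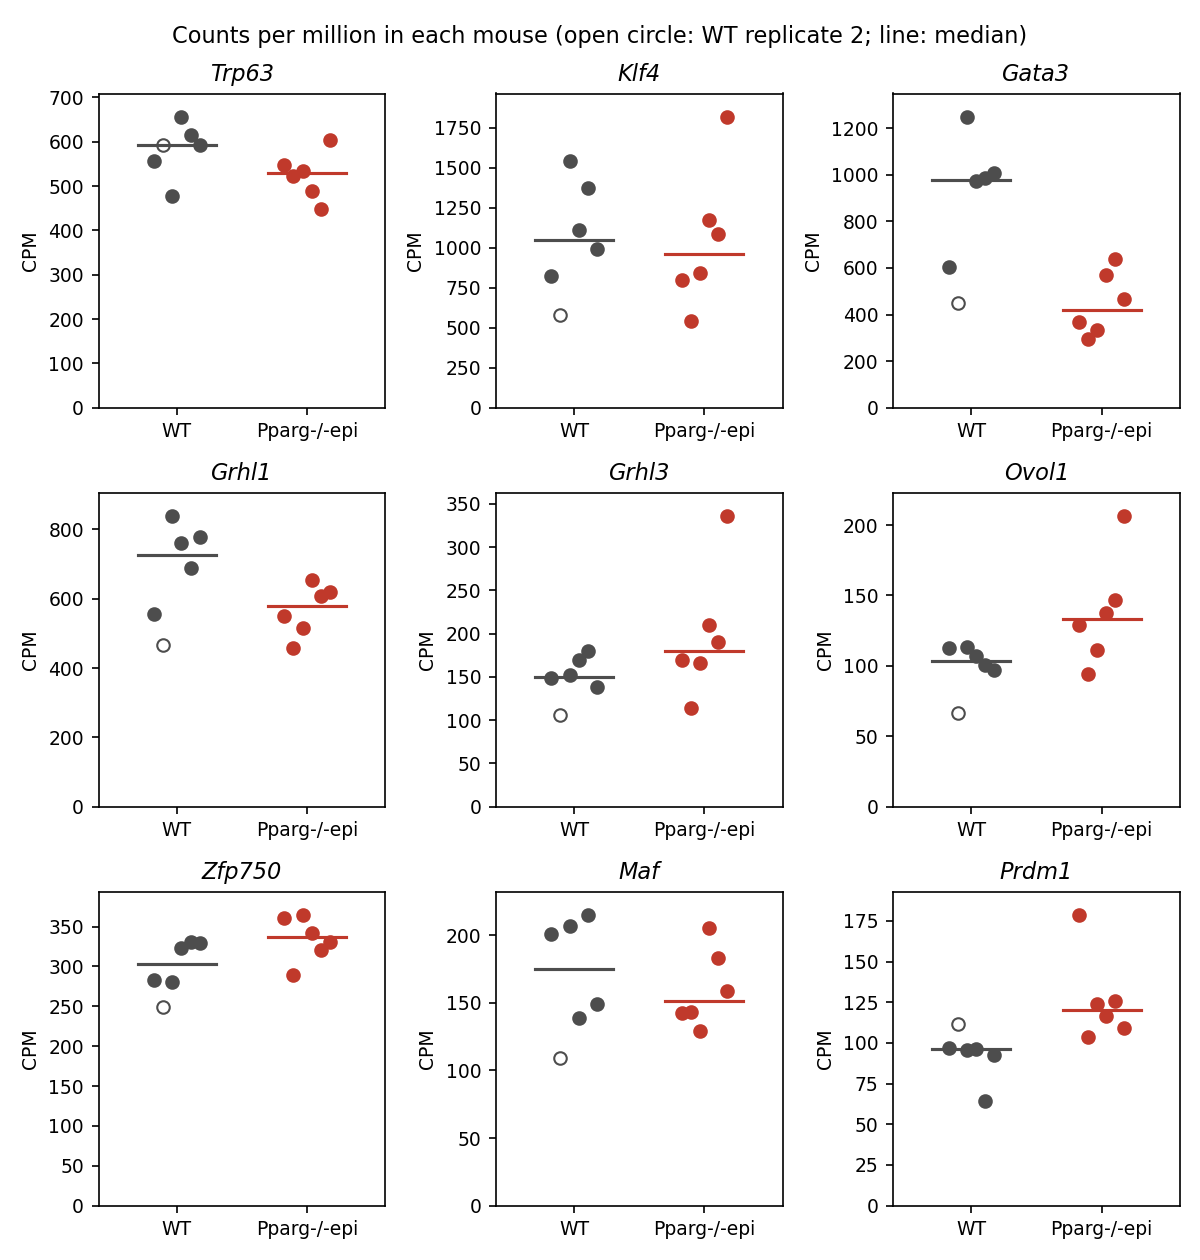
Level of each of the 9 transcription factors in every mouse, as counts scaled to TMM-adjusted library totals (CPM) on an axis from 0, with 6 WT and 6 Pparg-/-epi mice. Lines mark group medians and the open circle WT replicate 2. The medians of Gata3 are 979 in WT and 419 in Pparg-/-epi mice, and no factor has groups that do not overlap.

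Counts were then compared between the genotypes with edgeR's quasi-likelihood test over all genes, the source of every adjusted p below unless another test is named. A gene was called altered if its log2 fold change was 0.6 or more in either direction and its Benjamini-Hochberg adjusted p was under 0.05. Of the 9 factors, 1 was altered (11.1%), beside 1493 of 14533 genes (10.3%). That factor, Gata3, was lower in Pparg-/-epi mice, as were 5.08% of all genes, and no factor was higher, against 5.19% of all genes. At an unadjusted p under 0.05 there were 3 of the 9, Gata3, Prdm1 and Ovol1, against 29.5% of all genes. In CPM, which is counts scaled to library totals adjusted by TMM factors, 0 of the 9 factors had groups that did not overlap, against 7.9% of all genes. The median log2 fold change was -0.04 over the 9 factors and -0.01 over all genes, but over the factors it was positive in females alone (0.14) and with sex (0.0315), RIN (0.20) or the name number (0.20) as a term. The fitted values were positive for 4 factors and negative for 5, but those of Klf4 and Maf changed sign with some of the alternative fits. Without WT replicate 2, Gata3 was again the 1 altered factor, while 15.5% of all genes were altered, 1303 higher and 946 lower against 754 and 739 with all mice.

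**Figure D2:**
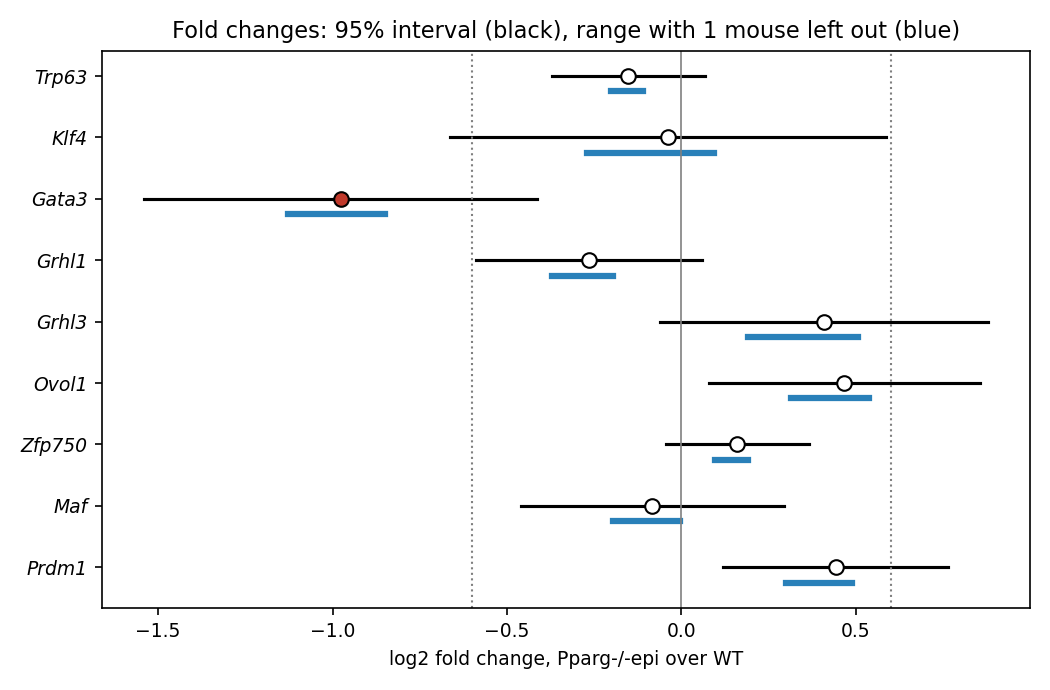
Log2 fold change of each factor, Pparg-/-epi over WT, with its approximate 95% interval (black line) and the range over 12 fits that each left out 1 mouse (blue line). Dotted lines mark a change of 0.6 on the log2 scale, and the filled circle marks Gata3, the altered factor, at -0.98.

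Gata3 encodes a zinc finger protein that directs lipid synthesis for the epidermal barrier and the fate of inner root sheath cells, and it is also a master factor of T helper 2 cells. In WT mice its level ran from 448 to 1250 CPM with a median of 979. In Pparg-/-epi mice it ran from 295 to 638 CPM with a median of 419. The 4 WT mice with the highest values, all above 970 CPM, lay clear of every Pparg-/-epi mouse, whereas WT replicates 1 and 2, at 603 and 448 CPM, lay within the Pparg-/-epi range. All 6 Pparg-/-epi mice were below the WT median, and 3 of them were below every WT mouse. The log2 fold change was -0.98 (SE 0.26, approximate 95% interval -1.54 to -0.41, adjusted p = 0.0238), a fitted WT level 1.97 times that of Pparg-/-epi mice. Without WT replicate 2 it was -1.13 (SE 0.23, adjusted p = 0.00437).

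The Gata3 call lay close to the threshold. It was lost in 5 of the 12 fits that left out 1 mouse. Leaving out WT replicate 3 gave a log2 fold change of -0.85 (adjusted p = 0.0529), leaving out WT replicate 4 gave -0.95 (adjusted p = 0.0520), and leaving out WT replicate 6 gave -0.93 (adjusted p = 0.0509). Without Pparg-/-epi replicate 7 it was -0.94 (adjusted p = 0.0507), and without Pparg-/-epi replicate 9 it was -0.92 (adjusted p = 0.0522). Among the 7 female mice alone it was -0.99 (adjusted p = 0.155). Over all fits on other settings the adjusted p ran from 0.00165 to 0.222, and the log2 fold change from -0.99 to -0.68.

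Gata3 lies on the minus strand of chromosome 2, from 9857078 to 9878600 of mm10 in the deposited exon positions. RefSeq promoters (GRCm38.p6) were available for 5 of the 9 factors, Klf4, Grhl1, Grhl3, Gata3 and Prdm1; Trp63, Ovol1, Maf and Zfp750 had no entry. The 250 bases ahead of the start are shown for Gata3 and for Prdm1, the factors with the smallest p among the 9 and with opposite signs. Capitals mark matches on either strand to CACCC, the box that KLF proteins can bind.
Gata3, chr2:9878601-9878850, minus strand: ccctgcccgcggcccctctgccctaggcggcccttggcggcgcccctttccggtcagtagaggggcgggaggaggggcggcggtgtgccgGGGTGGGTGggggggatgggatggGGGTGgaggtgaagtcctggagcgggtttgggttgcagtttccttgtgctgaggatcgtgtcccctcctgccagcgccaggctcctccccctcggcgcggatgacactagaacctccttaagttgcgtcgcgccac
Prdm1, chr10:44458749-44458998, minus strand: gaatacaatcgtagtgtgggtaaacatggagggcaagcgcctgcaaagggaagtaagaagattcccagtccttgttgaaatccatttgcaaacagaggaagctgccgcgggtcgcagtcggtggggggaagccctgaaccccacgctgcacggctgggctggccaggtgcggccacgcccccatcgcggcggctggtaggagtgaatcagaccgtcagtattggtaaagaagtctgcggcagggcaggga

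The Gata3 window held 3 matches to CACCC, at 160, 156 and 136 bases ahead of the start, of which 2 overlap by a base, and the Prdm1 window held 0. The Grhl3 window also held 3, and the 2 Grhl1 windows held 0 and 2, while that of Klf4 held 0. Of all 32851 promoters in the RefSeq table, 52% held this box in the same window. The nuclear receptor half-site AGGTCA (14% of promoters), the GRHL motif AACCGGTT (0.116%) and the GATA motif, spelled as AGATAA or else TGATAA, or else AGATAG or else TGATAG (26.5% for any spelling), had 0 matches in each of the 6 promoter windows of these 5 genes. All 250 bases of the Gata3 window also lie in exons annotated in GENCODE, counted on either strand and without regard to the gene. The GENCODE exons of Gata3 share 77 bases with 9230102O04Rik on the same strand and 155 bases with the antisense gene Gm13256. GC content was 70% in the Gata3 window and 59.2% in the Prdm1 window.

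The level of Gata3 can be set beside RNA quality. RNA integrity numbers (RIN) were 6.88 ± 1.03 (SD, n = 6) in WT and 7.55 ± 1.07 (SD, n = 6) in Pparg-/-epi mice. The 2 libraries with a RIN of 8.5 or more in the Pparg-/-epi group had 368 and 295 CPM of Gata3, and the library with a RIN of 5.7 had 638. In WT mice the library with a RIN of 8.6 had 448 CPM, the lowest, and those with a RIN of 6.2, 6.1 and 5.9 had 1007, 1250 and 987. The libraries between these extremes were less regular, with 972 CPM at a RIN of 7.1 and 603 at 7.4 in WT mice, and 469 at 7.1 and both 335 and 572 at 7.7 in Pparg-/-epi mice. With RIN as a term beside genotype, Gata3 changed by -0.40 on the log2 scale per unit of RIN (SE 0.08, adjusted p = 0.0385). Klf4 changed by -0.41 per unit (SE 0.12, adjusted p = 0.0474), and these 2 of the 9 factors compare with 13.1% of all genes. With sex in the model as well, the RIN term did not pass for Gata3 (adjusted p = 0.0716), for Klf4 (adjusted p = 0.0856) or for any of the 14533 genes by edgeR, with 4312 genes and 4 of the factors at an unadjusted p under 0.05. With RIN alone as the added term, the genotype difference of Gata3 was smaller but past the threshold, at -0.68 (SE 0.17, adjusted p = 0.0182). Among the mice with a RIN of 7 or more, 3 WT and 5 Pparg-/-epi, a comparison chosen after the data were seen, it was -0.72 (SE 0.29, adjusted p = 0.222).

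**Figure D3:**
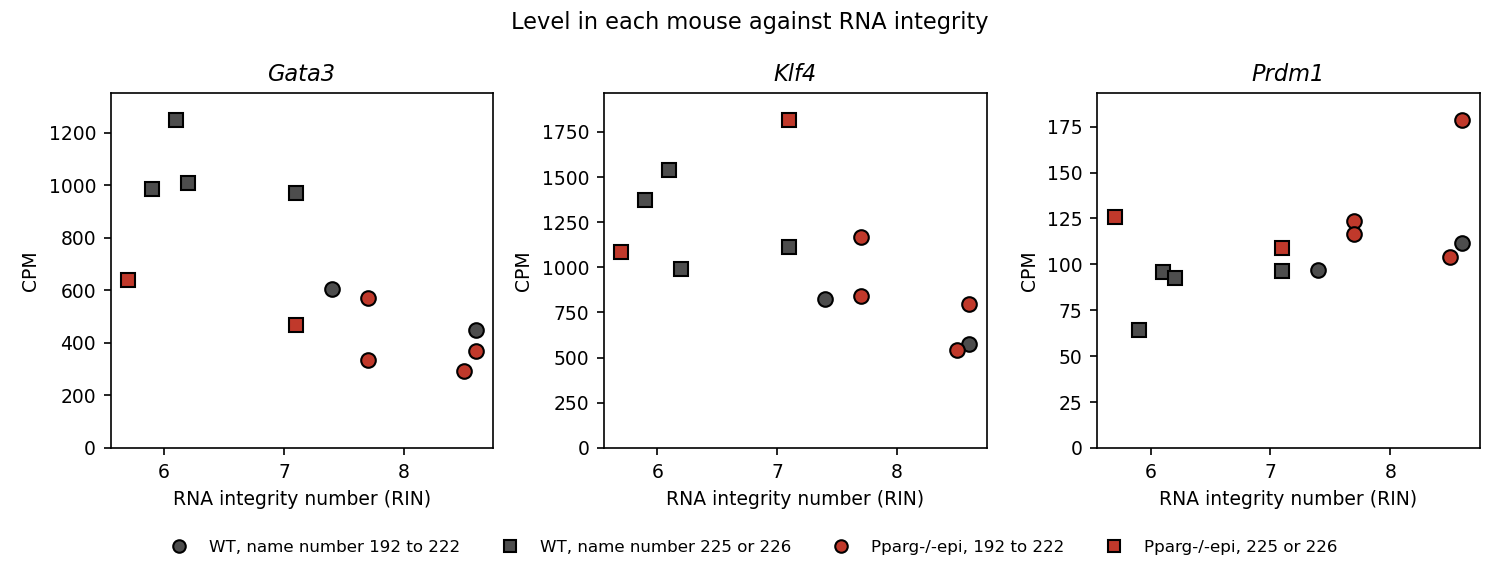
CPM of Gata3, Klf4 and Prdm1 against RIN in each of 12 mice, with WT in grey and Pparg-/-epi in red. Squares mark mice whose names carry the numbers 225 or 226 and circles those with 192 to 222. Gata3 and Klf4 are low where RIN is 8.5 or more, with Gata3 at 295 to 448 CPM in those 3 mice.

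RIN was in turn tied to a number in the mouse names. The mice with the numbers 192 to 222, which were 2 WT and 4 Pparg-/-epi mice, had a RIN of 7.4 to 8.6, and those with the numbers 225 and 226, which were 4 WT and 2 Pparg-/-epi mice, had 5.7 to 7.1. Among the former, Gata3 was at 448 and 603 CPM in WT and at 295 to 572 CPM in Pparg-/-epi mice, which overlap. Among the latter it was at 972 to 1250 CPM in WT and at 469 and 638 CPM in Pparg-/-epi mice, which do not overlap. The ratio of the Pparg-/-epi to the WT mean was 0.746 in the former and 0.525 in the latter, and whether these differ was not tested. With the name number as 2 blocks in the fit, the genotype difference of Gata3 was -0.68 (SE 0.19, adjusted p = 0.0352). The block term itself passed an adjusted p of 0.05 for Gata3, at 0.75 (SE 0.19, adjusted p = 0.0383), and for Klf4, at 0.82 (SE 0.21, adjusted p = 0.0383), beside 11.3% of all genes. A fit with both RIN and the name number was not made, so the part of each was not tested.

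Trp63, which encodes the p63 protein of basal keratinocytes, varied little. It ran from 478 to 656 CPM with a median of 593 in WT and from 447 to 604 CPM with a median of 528 in Pparg-/-epi mice, 5 of which were below the WT median. The groups overlapped over most of their range. Its log2 fold change was -0.15 (SE 0.10, adjusted p = 0.349), with an approximate 95% interval from -0.37 to 0.07 that leaves out a change of 0.6 in either direction. Zfp750, a zinc finger factor downstream of p63 that promotes terminal differentiation and restrains basal genes, ran from 249 to 330 CPM in WT and from 289 to 365 CPM in Pparg-/-epi mice. Of the 6 Pparg-/-epi mice 4 were above every WT mouse, and the log2 fold change of 0.16 (SE 0.09, adjusted p = 0.286) had an interval from -0.04 to 0.37, so a change of 0.6 was again outside it. For these 2 factors the coefficient of variation was 8.41% to 11.2% within a genotype, the smallest among the 9.

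Klf4, a zinc finger factor needed for the skin barrier, was among the most variable. It ran from 577 to 1540 CPM with a median of 1050 in WT and from 541 to 1817 CPM with a median of 962 in Pparg-/-epi mice, with a coefficient of variation of 33.1% and 42.3%. The groups covered nearly the same range, with 3 Pparg-/-epi mice above and 3 below the WT median. The log2 fold change was -0.04 (SE 0.29, adjusted p = 0.951), and its interval from -0.66 to 0.59 was too wide to leave out a change of 0.6 downwards. With RIN as a term the estimate was 0.26 (SE 0.23, adjusted p = 0.491). Maf, a leucine zipper factor that promotes differentiation, ran from 109 to 215 CPM in WT and from 129 to 206 CPM in the Pparg-/-epi group, with a fitted log2 fold change of -0.08 (SE 0.17, adjusted p = 0.799) and an interval from -0.46 to 0.29. Its sign turned in some alternative fits too.

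The grainyhead-like factors had fitted values of opposite sign, neither past the test. Grhl1, which is known for its control of desmosomal cadherin genes, ran from 466 to 839 CPM with a median of 725 in WT and from 456 to 655 CPM with a median of 579 in Pparg-/-epi mice. All 6 Pparg-/-epi mice were below the WT median, but WT replicates 1 and 2 lay among them. The log2 fold change was -0.27 (SE 0.15, adjusted p = 0.265), and it was -0.37 (adjusted p = 0.0559) without WT replicate 2. It was nearer 0 with RIN as a term, at -0.13 (adjusted p = 0.553), with the name number in 2 blocks, at -0.12 (adjusted p = 0.587), and among mice with a RIN of 7 or more, at -0.0812 (adjusted p = 0.866). Grhl3, which is required for barrier formation and activates the transglutaminase gene Tgm1, ran from 106 to 180 CPM in WT and from 114 to 336 CPM in Pparg-/-epi mice. The fit gave 0.41 for its log2 fold change (SE 0.22, adjusted p = 0.235), and 3 Pparg-/-epi mice were above every WT mouse. The highest value was that of Pparg-/-epi replicate 12, and leaving it out brought the log2 fold change to 0.19 (adjusted p = 0.489). With RIN as a term the Grhl3 value was 0.55 (adjusted p = 0.0897), and with the name number in 2 blocks 0.55 (adjusted p = 0.0621).

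Ovol1 encodes a zinc finger repressor that helps suprabasal cells to stop dividing. It ran from 66.8 to 113 CPM with a median of 104 in WT and from 93.9 to 207 CPM with a median of 133 in Pparg-/-epi mice. The value of 66.8 was that of WT replicate 2, and 4 of the 6 Pparg-/-epi mice lay above every WT mouse. The log2 fold change was 0.47 (SE 0.18, interval 0.08 to 0.86, adjusted p = 0.101), and without WT replicate 2 it was 0.36 (adjusted p = 0.130). With RIN as a term it was 0.59 (SE 0.16, adjusted p = 0.0286), with sex as a term 0.52 (SE 0.15, adjusted p = 0.0390) and with the name number in 2 blocks 0.58 (SE 0.15, adjusted p = 0.0242), each under the 0.6 asked for. Over the alternative fits its adjusted p ran from 0.0147 to 0.355. In GENCODE 19.8% of the Ovol1 exon bases lie under an antisense pseudogene, Gm31166, and the strand setting of the counting was not given in the sources used here, so reads from the overlap cannot be told apart.

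Prdm1 encodes the repressor BLIMP1, which acts in the granular layer during terminal differentiation and also marks sebaceous progenitors. It ran from 64.1 to 112 CPM with a median of 96.0 in WT and from 104 to 179 CPM with a median of 120 in Pparg-/-epi mice. All 6 Pparg-/-epi mice exceeded the WT median and 4 exceeded every WT mouse, and the overlap was due to WT replicate 2, the highest of its group. The log2 fold change was 0.44 (SE 0.15, interval 0.12 to 0.77, adjusted p = 0.0637), which did not pass. Without WT replicate 2 the groups no longer overlapped, as in 13.2% of all genes, and the log2 fold change was 0.49 (SE 0.15, adjusted p = 0.0374), still under 0.6. Without Pparg-/-epi replicate 7, whose 179 CPM was the highest, it was 0.30 (adjusted p = 0.157). Over the alternative fits, the adjusted p of Prdm1 ran from 0.0312 with DESeq2 to 0.384.

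Of 8 sebocyte markers measured, 6 were lower and 0 higher in Pparg-/-epi mice, with and without WT replicate 2. With all mice, 5.08% of all genes were lower and 5.19% higher. Their summed level was 20.8 to 1000 CPM in WT (median 206) and 4.49 to 17.2 CPM in Pparg-/-epi mice (median 9.55), groups that did not overlap. An exact two-sided permutation test gave p = 0.00216, which is the floor for 6 mice against 6, and 0.0173 after adjustment over 8 marker lists. The paper had already listed Fa2h, Scd3, Awat1, Awat2, Far2, Elovl3 and Acaa1b as suppressed in these same mice. The counts, the sum and its p therefore repeat that result and are no separate support for it. Fa2h, a fatty acid hydroxylase and the most abundant of them per length, had 68 to 3956 counts in WT mice, and its highest count in a Pparg-/-epi mouse was 21. The desaturase Scd3, with a log2 fold change of -7.68 (SE 1.23, adjusted p = 0.00160), the wax synthase Awat1 and Acaa1b likewise had 0 counts in at least 1 Pparg-/-epi mouse. Far2, a fatty acyl reductase, had a log2 fold change of -6.07 (SE 1.13, adjusted p = 0.00390). The part of sebocytes in the Prdm1 level was not tested.

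With sex as a term beside genotype, 4 of the 9 had an unadjusted p under 0.05 in edgeR's test, against 16.1% of all genes, and all 4 were higher in males: Maf, Klf4, Grhl3 and Ovol1. After adjustment none of the 9 passed, and 2 of 14533 genes did. Maf gave the clearest case, with 201 to 215 CPM in the 3 male and 109 to 149 CPM in the 3 female WT mice. In Pparg-/-epi mice Maf was at 159 and 206 CPM in the 2 males and at 129 to 183 CPM in the 4 females, which overlap. The male level of Maf over the female level was 0.48 on the log2 scale (SE 0.12, adjusted p = 0.279). An interaction of genotype and sex had an adjusted p under 0.05 in 0 of 14533 genes by edgeR, with 741 at an unadjusted p under 0.05 and none of the 9 factors among them. For Gata3 the log2 fold change was -0.98 in females and -0.86 in males. Age by the sample labels, taken as a term, had an unadjusted p under 0.05 in edgeR's test for 0 of the 9 factors, against 2.68% of all genes. These ages differ from the study's sample sheet for some mice, and the paper gives a younger range for its experimental mice.

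Of 9 close relatives of the factors 2 were higher and 0 lower (2 and 1 without WT replicate 2), with a median log2 fold change of 0.03. Over all genes 5.19% were higher and 5.08% lower, and 15.5% were altered without WT replicate 2. Klf5, a basal KLF factor, was the most abundant of the relatives per length, at 155 RPKM in WT mice. Gata6, a GATA factor of the upper follicle and sebaceous duct, had a log2 fold change of 1.89 (SE 0.59, adjusted p = 0.0460), and Gata2 one of 1.48 (SE 0.30, adjusted p = 0.00608). Both were at low levels, at 3.20 and 0.965 RPKM in WT mice against 273 for Gata3. Ovol2, a repressor related to Ovol1, had 8.61 ± 2.08 CPM in WT mice against 4.95 ± 2.06 CPM in the Pparg-/-epi group (SD, n = 6), a log2 fold change of -0.80 that did not pass (SE 0.28, adjusted p = 0.0716). Like Ovol2, Trp73 was chosen to be named after values were seen, and with a log2 fold change of 0.63 (SE 0.21, adjusted p = 0.0635) it did not pass either.

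Ratios of RPKM within a mouse do not depend on the scaling of libraries, and 8 ratios of a factor to a relative were taken after the values had been seen, so they are described without a test. The ratio of Ovol1 to Ovol2 was 5.44 to 7.00 in the 6 WT mice and 12.0 to 22.6 in the 6 Pparg-/-epi mice. WT replicate 2 lay with the other WT mice in this ratio. It was the only one of the 8 ratios whose ranges did not overlap, and it rests on 38 to 165 counts of Ovol2 per library. The ratio of Grhl3 to Grhl1 was 0.225 to 0.339 in the WT group, against 0.316 to 0.690 in the Pparg-/-epi group. Gata3 was 97.9 to 850 times as high as Gata2 in WT and 36.6 to 100 times as high in Pparg-/-epi mice, overlapping through WT replicate 2.

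**Figure D4:**
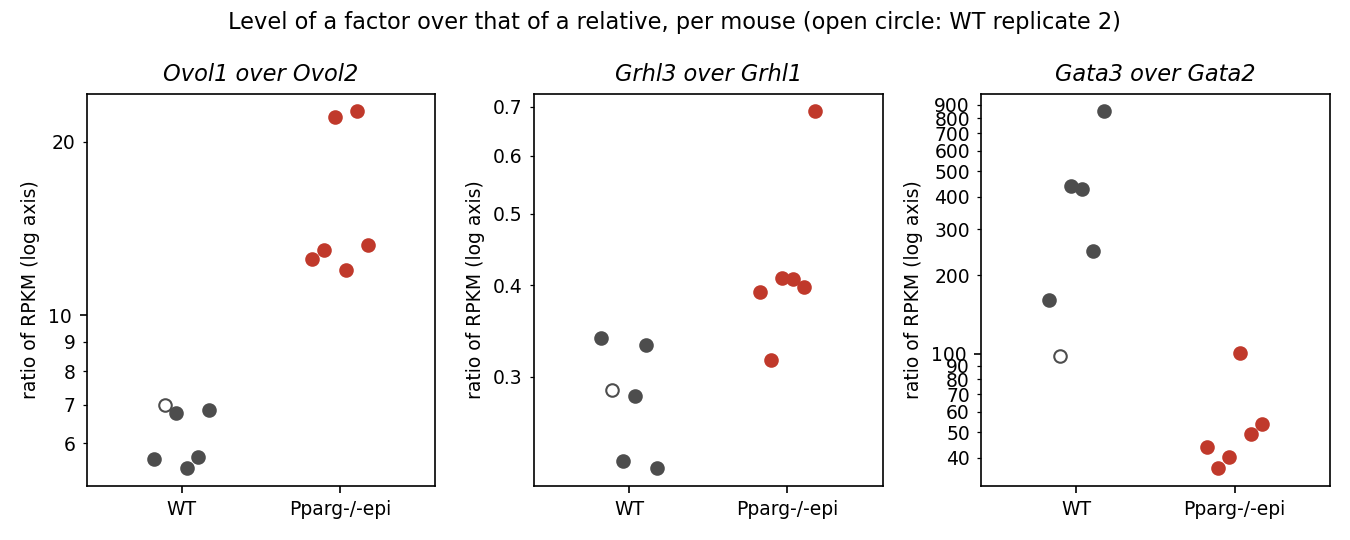
Ratio of RPKM between a factor and its relative in each mouse, on log axes, for Ovol1 over Ovol2, Grhl3 over Grhl1 and Gata3 over Gata2, with 6 WT and 6 Pparg-/-epi mice and WT replicate 2 as an open circle. The Ovol1 ratio is 5.44 to 7.00 in WT mice, against 12.0 to 22.6 in the Pparg-/-epi group.

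Among 27 further transcription factors of epidermal commitment and differentiation, 5 were higher and 1 was lower in Pparg-/-epi mice, against 5.19% and 5.08% of all genes. Their median log2 fold change was 0.11. The epithelial ETS factors Elf3 and Ehf had log2 fold changes of 2.18 (SE 0.58, adjusted p = 0.0235) and 2.17 (SE 0.33, adjusted p = 0.00130). Runx1, a factor of hair follicle stem cells, had 1.86 (SE 0.42, adjusted p = 0.0109), and the vitamin D receptor gene Vdr 1.01 (SE 0.23, adjusted p = 0.0120). Tfap2b, an AP-2 factor, was the 1 that was lower, with a log2 fold change of -1.40 (SE 0.13, adjusted p = 7.82e-05). Cebpa, the most abundant of them per length at 135 RPKM in WT mice, had a log2 fold change of 0.14 (SE 0.18, adjusted p = 0.647).

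Notch signalling, which takes basal cells into the spinous layer, had 0 of 18 genes altered by edgeR's quasi-likelihood test, against 10.3% of all genes. The likelihood ratio test of edgeR and DESeq2 also gave 0. By the quasi-likelihood test 3 of the 18 had an unadjusted p under 0.05, against 29.5% of all genes. The median log2 fold change of the Notch genes was 0.11. Hes1, the target gene most abundant per length, had a log2 fold change of -0.26 (SE 0.22, adjusted p = 0.476). Of 20 chromatin regulators that work with p63, KLF4 or ZNF750, 0 were higher and 1 was lower, against 5.19% and 5.08% of all genes. Their median was 0.04. The lower one was Satb1, a chromatin organizer downstream of p63, at 93.6 ± 24.9 CPM in WT mice against 31.9 ± 8.72 CPM in the Pparg-/-epi group (SD, n = 6), a log2 fold change of -1.56 (SE 0.23, adjusted p = 0.000975). Hdac2, the most abundant per length, had a log2 fold change of -0.03 (SE 0.13, adjusted p = 0.911). Without WT replicate 2 the altered genes in these 4 regulator lists numbered 15, against 9 with all mice, made up of 8 of the 27 further factors, 1 of the Notch genes, 3 of the chromatin regulators and 3 of the relatives.

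**Figure D5:**
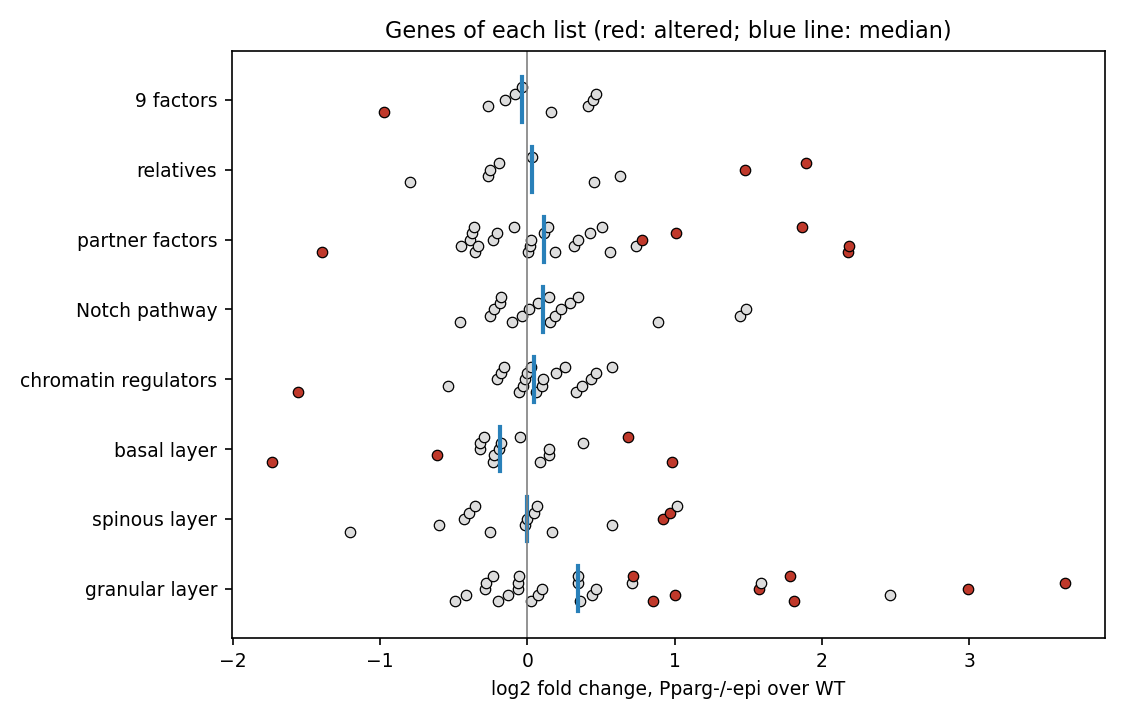
Log2 fold change, Pparg-/-epi over WT, of each gene in 8 lists, with altered genes in red and the median of each list as a blue line. The 9 factors lie between -0.98 and 0.47, while granular layer genes reach 3.65.

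Genes expressed in the layers where the factors act were counted in the same way. Of 29 measured genes of the granular layer, 8 were higher and 0 lower (27.6% altered, against 10.3% of all genes), with a median log2 fold change of 0.34. Among the altered genes the largest rises were those of Sprr1b, a cornified envelope precursor, with a log2 fold change of 3.65 (SE 0.64, adjusted p = 0.00286), the protease Klk6 with 2.99 (SE 0.53, adjusted p = 0.00291), Casp14 with 1.81 (SE 0.24, adjusted p = 0.000501) and the transglutaminase Tgm3 with 1.78 (SE 0.24, adjusted p = 0.000621). Lor, which encodes loricrin and was the most abundant of them per length at 1434 RPKM in WT mice, had a log2 fold change of -0.06 (SE 0.26, adjusted p = 0.905). Tgm1, the known GRHL3 target named above and picked out after values were seen, had 0.36 (SE 0.15, adjusted p = 0.129). Of 15 spinous layer genes 2 were higher, the calmodulin-like genes Calml3, with 0.97 (SE 0.12, adjusted p = 0.000345), and Calm4, with 0.92 (SE 0.25, adjusted p = 0.0260), and 0 were lower, with a median of -0.00. Of 16 basal layer genes 2 were higher and 2 lower, with a median of -0.19. Krt14 had a log2 fold change of 0.98 (SE 0.20, adjusted p = 0.00559) and Cdh3, which encodes P-cadherin, 0.69 (SE 0.16, adjusted p = 0.0122), whereas Krt15 had -1.74 (SE 0.26, adjusted p = 0.00106) and Fgfr2 -0.62 (SE 0.13, adjusted p = 0.00625). The summed level of the basal list was 0.954 times, and that of the spinous list 0.981 times, the WT mean in Pparg-/-epi mice (exact permutation tests, two-sided, adjusted p = 0.757 and 0.991). Both WT means were lowered by WT replicate 2. Its basal sum was 14936 CPM, against 20418 to 25305 CPM in the other WT mice. Its spinous sum was 30137 CPM, against 61360 to 71635 CPM in the other WT mice. Without WT replicate 2 the altered genes in the 3 layer lists numbered 18, against 14 with all mice.

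Several of the factors are also made by cells other than keratinocytes, Gata3 by T cells, Maf by macrophages and T cells, and Klf4 by endothelial cells. The 12 T cell markers summed to 171 to 276 CPM in WT and 222 to 283 CPM in Pparg-/-epi mice (exact permutation test, two-sided, adjusted p = 0.351). Of them Cd5 and Cd8a were higher, from low WT means of 1.80 and 0.678 CPM. Cd3e was lower, with a log2 fold change of -0.75 (SE 0.21, adjusted p = 0.0325), and Thy1 was the most abundant per length. Cd3d, Cd3g and Cd247 were picked out after values were seen. Their log2 fold changes were -0.53 (adjusted p = 0.244), -0.47 (adjusted p = 0.238) and -0.83 (adjusted p = 0.0556), and none passed. Of the 12 T cell markers 7 had positive and 5 negative values. Without WT replicate 2, 3 of these 12 were higher and 2 lower. The 12 macrophage markers, led by Lyz2, summed to 97.4 to 839 CPM in WT and 265 to 490 CPM in Pparg-/-epi mice (adjusted p = 0.398 by the same exact permutation test), and Aif1 alone was altered, upwards, whereas 3 were higher without WT replicate 2. The 10 endothelial markers, led by Pecam1, summed to 11.2 to 178 CPM in WT and 54.4 to 277 CPM in Pparg-/-epi mice (adjusted p = 0.182 by the same exact permutation test), and Emcn and Erg were higher. All 10 had positive values, with a median log2 fold change of 1.25, and the altered ones numbered 3 by the likelihood ratio test, 4 by DESeq2 and 6 without WT replicate 2. The 10 fibroblast markers, led by Col1a1, summed to 1085 to 35166 CPM in WT and 5716 to 11982 CPM in Pparg-/-epi mice (adjusted p = 0.757 by the same exact permutation test), with 0 altered by each of the 3 tools, 0 at an unadjusted p under 0.05 and 0 altered without WT replicate 2.

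The 9 inner root sheath markers, led by Tchh, summed to 17.2 to 2149 CPM in WT and 162 to 4614 CPM in Pparg-/-epi mice (exact permutation test, two-sided, adjusted p = 0.335), and none was altered by the 3 tools, with 1 at an unadjusted p under 0.05. All 9 had positive values, with a median log2 fold change of 1.44, and 2 were higher without WT replicate 2. The highest sums in each group were those of WT replicate 2 and Pparg-/-epi replicate 8, which had the lowest Gata3 of their groups, at 448 and 295 CPM. WT replicate 1, however, had the lowest sum, at 17.2 CPM, and the next lowest Gata3 among WT mice, at 603 CPM.

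Macrophage and endothelial sums were set beside Gata3 after values were seen. In WT replicates 3 to 6, with Gata3 at 972 to 1250 CPM, macrophage markers summed to 97.4 to 214 CPM and endothelial markers to 11.2 to 52.9 CPM. WT replicates 1 and 2, with Gata3 at 603 and 448 CPM, had macrophage sums of 422 and 839 CPM and endothelial sums of 100 and 178 CPM. Pparg-/-epi replicates 10 to 12, with Gata3 at 469 to 638 CPM, had macrophage sums of 265 to 294 CPM and endothelial sums of 54.4 to 112 CPM. Pparg-/-epi replicates 7 to 9, with Gata3 at 295 to 368 CPM, had 427 to 490 CPM and 228 to 277 CPM. In each genotype the set of mice with less Gata3 had higher macrophage and endothelial sums, but the sets were formed by Gata3 level itself. Apart from Pparg-/-epi replicate 10, they also followed the 2 blocks of the name number. Fibroblast and T cell sums overlapped between the Pparg-/-epi sets but not between the WT sets. In WT replicates 1 and 2 fibroblast markers summed to 35166 and 11004 CPM, against 1085 to 8376 CPM in WT replicates 3 to 6. T cell markers summed to 276 and 269 CPM in WT replicates 1 and 2, against 171 to 259 CPM in WT replicates 3 to 6. Whether the genotype difference of Gata3 and the content of these cells can be separated was not tested. No marker of these 5 cell types was at 0 in all mice, and Krt25, Krt26 and Krt72 of the inner root sheath had 0 counts in at least 1 WT mouse. The part of these cells in the levels of the factors was not tested.

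Genes with the most similar profile were sought for each factor as those with the smallest root-mean-square difference in log2 CPM, centred on each gene's mean over the 12 libraries. For Gata3 they were Ptpn21 (0.134), Lmo4 (0.139) and Tmie (0.140), where the median over all genes was 0.718. All 3 were altered and lower in Pparg-/-epi mice, Ptpn21 with a log2 fold change of -1.08 (adjusted p = 0.00662), Lmo4 with -0.98 (adjusted p = 0.0171) and Tmie with -1.11 (adjusted p = 0.0179). A gene picked for its likeness to Gata3 in these libraries shares its genotype difference by choice, so this is no separate result. For Prdm1 they were Fam214a, Ell2 and Mid2 (0.118, 0.173 and 0.184), none altered since their log2 fold changes were under 0.6. Ltb4r1, the gene of a leukotriene B4 receptor, was near both Ovol1 (0.114) and Grhl3 (0.154). The remaining nearest genes were Nolc1 and Blzf1 for Ovol1, Rrp12 and Ezr for Grhl3, Prdm2, Kpna1 and Msl2 for Trp63, Sec62, Hspa1b and Sltm for Klf4, Rce1, H2afy and Pvrl4 for Grhl1, Edf1, Aes and Sepw1 for Maf, and Srrm1, Ctdp1 and Pes1 for Zfp750. Their differences ran from 0.0728 for Rce1 to 0.178 for Sltm, and 0 of them were altered.

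The factors are spread over the genome, with Klf4 and Grhl3 both on chromosome 4 and the others on chromosomes 2, 8, 10, 11, 12, 16 and 19. For 6 of the 9, Trp63, Klf4, Grhl1, Grhl3, Zfp750 and Prdm1, no stretch of 75 bases, the length of a read, occurred in a GENCODE transcript of another gene. Shared stretches made up 18.2% of those of Ovol1, 4.02% of those of Maf and 0.63% of those of Gata3, in genes that overlap them on the genome. Each factor had at least 811 counts in every library.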

How the data were processed

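According to the paper and the sample labels, the authors aligned 75-base paired reads from 12 libraries to mm10 with STAR 2.5.2b, discarded multi-mapped reads and counted reads per gene with featureCounts of Subread 1.5.1. The strand setting was not given in the sources used here. The deposited values are whole-number counts without normalization for 14533 genes, after 2800 blank lines of 17333 had been dropped. All 14533 genes exceed 0.5 CPM in at least 6 libraries, so no further filter was applied. Columns were assigned to mice by the mouse names in the sample labels and the study's sample sheet.

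Counts were normalized with TMM and compared with the quasi-likelihood test of edgeR 4.0.16 in R 4.3.3, with genotype as the term and Benjamini-Hochberg adjustment over 14533 genes. Standard errors are the absolute log2 fold change divided by the square root of F, and intervals are approximate. Logged values used a prior count of 2. The procedure was tested on simulated data. DESeq2 1.42.0, the likelihood ratio test, other normalizations, a filter of 10 counts in 6 libraries, fits without each mouse, female mice alone, and sex, RIN, age or name number as terms were alternatives. Summed marker levels on the log2 scale were compared with exact permutation tests. Libraries of a group differed by 11.0 to 142 in chi-square per degree of freedom, so no pair of libraries was a copy.

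Genes to name were the 9 factors, Pparg, the most abundant gene per length and up to 4 altered genes per direction of each list, the 3 nearest genes to each factor and markers with 0 counts. Trp73, Ovol2, Tgm1, Cd3d, Cd3g and Cd247 were added after their values were seen. The members and lists were chosen with earlier results of these data known. Flg, Mc5r and Dgat2l6 of the lists were not among the genes used here. Python 3.11.15 with matplotlib 3.10.9 made the figures.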

Additional observations from a re-analysis of the deposited data

Results flagged for a closer look

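Within a group of 6 mice, a value was picked out where it lay far from the other mice by Dixon's rule. This held in 6 of 34 groups examined. Chance picks out about 1 in 20 where values are normally distributed. The groups examined share the same mice, and some marker sums are widely spread, such as that of fibroblasts in WT mice (mean 11130, SD 12288 CPM). The rates are therefore not directly comparable.

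Among the factors, Ovol1 in WT replicate 2 was at 66.76 CPM, below the 96.99 to 113.4 CPM of the remaining WT mice. Prdm1 in Pparg-/-epi replicate 7 was at 178.8 CPM, above the 103.8 to 125.9 CPM of the remaining Pparg-/-epi mice.

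Among the summed marker levels, fibroblast markers in WT replicate 1 reached 35170 CPM, where the next WT mouse had 11000 CPM. Inner root sheath markers reached 2149 CPM in WT replicate 2, where the next WT mouse had 523.8 CPM, and 4614 CPM in Pparg-/-epi replicate 8, where the next had 1642 CPM. Spinous markers in WT replicate 2 were at 30140 CPM, where the next lowest WT mouse had 61360 CPM.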

How the results depend on the processing

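No paired analysis was possible because the replicate numbers of WT (1 to 6) and Pparg-/-epi mice (7 to 12) are not shared and a name number was common to both genotypes only for 1 mouse of each (222); blocks of name numbers were fitted instead. Gata3 was the altered factor with edgeR's likelihood ratio test, DESeq2, total-count and RLE scaling, the stricter count filter, an adjusted p alone, and with sex, RIN, age, name number, or RIN and sex as terms; the last, like the RIN of 7 or more, was chosen after seeing the data.

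The number of altered factors was 0 among female mice and with a RIN of 7 or more, and 0 to 1 when each mouse was left out in turn. The median log2 fold change of the factors was 0.14 in females, 0.0315 with sex as a term, 0.20 with RIN, with the name number, or with RIN and sex as terms, 0.25 with a RIN of 7 or more, and -0.16 to 0.0948 with a mouse left out. Factors whose groups did not overlap numbered 0 to 1 with a mouse left out. Altered genes in the regulator lists numbered 4 in females and 4 with a RIN of 7 or more, and 6 to 15 with a mouse left out, against 9. Those in the layer lists numbered 8, 8 and 12 to 18, against 14. Over all genes 651 were altered in females and 502 with a RIN of 7 or more, against 1493, and 1116 to 2249 with a mouse left out. These fits had fewer mice, and the cause was not tested.

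Klf4 turned positive with sex (0.0315), RIN (0.26), name number (0.23) or RIN and sex (0.22) as terms and with a RIN of 7 or more (0.31), and ran from -0.27 to 0.0948 with a mouse left out. Maf turned positive in females (0.17), with sex (0.0266), RIN (0.0610), or RIN and sex (0.11) as terms and with a RIN of 7 or more (0.0670). Neither was altered in any fit, and the cause was not tested. The signs of the other 7 factors held in all fits.

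No scaling moved the median of all genes by over 0.1 on the log2 scale. The design had 6 mice a group, WT replicate 2 stood apart, and RIN and name number were spread unevenly over the genotypes. Levels are of RNA in scraped tissue, not of protein or of single layers.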
